A study of Mus musculus with 6 samples.

Results

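The genes described here encode proteins that neutrophils store in granules or hold in large amounts in the cytosol. They were chosen by gene name and number 10 of the 55421 genes in the table: Mpo, Elane, Prtn3 and Ctsg for the primary granules, Ltf, Camp, Ngp and Lcn2 for the secondary granules, and S100a8 and S100a9 for the cytosol. All 10 had enough counts to be tested. Their RNA levels were compared between 3 AE9a-Ddit4+/+ libraries and 3 AE9a-Ddit4-/- libraries, numbered 1 to 3 in each group. Both groups were bone marrow leukemia cells of the C57BL/6 strain. Blood stem and progenitor cells of Ddit4+/+ or Ddit4-/- donor mice had received AE9a, a truncated AML1-ETO fusion, through a retrovirus that also marks cells with GFP, and the resulting GFP+ leukemia cells were passed to irradiated recipient mice. All libraries thus share the AE9a retrovirus and the GFP mark, and the groups differ by the Ddit4 genotype of the donors. Per the labels the leukemia cells were kept in IMDM with 10% FBS. The sources do not say whether the libraries of a group come from separate leukemias, so p values measure the spread between these libraries, which may be partly technical. The paper reports that far fewer primary recipients of AE9a-Ddit4-/- than of AE9a-Ddit4+/+ cells developed leukemia. The 3 AE9a-Ddit4-/- libraries may therefore share a primary leukemia and not be independent of each other. The groups are called wild-type and knockout libraries from here on. Ddit4 encodes an inhibitor of mTOR signaling that is induced by stress.

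Neutrophils make their granules in a fixed order as they mature. Primary (azurophil) granules appear at the promyelocyte stage and carry myeloperoxidase and a family of serine proteases, whereas secondary (specific) granules appear later, at the myelocyte and metamyelocyte stages, and carry iron-binding and antimicrobial proteins. The calcium-binding proteins S100A8 and S100A9 accumulate in the cytosol as calprotectin, a complex of both. RNA of the granule proteins is made during these stages and falls again in mature cells, so that the genes are widely used to read how far granulocytes have developed.

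The upstream sequences of the members are shown because transcription factors of the C/EBP, PU.1, RUNX and MYB families are known to act on granule genes and because the AE9a fusion holds the DNA-binding part of RUNX1. For 10 of 10 members a RefSeq start site was present (build GRCm38.p6), and the 250 bases upstream of it were searched on both strands for TTNNGNAA (C/EBP), GAGGAAG (PU.1), TGTGGT (RUNX) and TAACNG (MYB). The windows of Elane, Ctsg, Ltf, Ngp and S100a9 are given here from 5′ to 3′ on the strand of the gene, with every match in capitals. They come from each compartment and include 3 of the 4 genes past the threshold, the most abundant secondary granule gene (Ngp) and the member whose RNA went the other way (Ctsg). Where GENCODE release M21 places the start of the gene farther upstream, only the bases before that start are shown, which left out 65 bases for Elane, 21 for Ltf and 61 for Ngp.
Elane (chr10:79886062-79886246, plus strand): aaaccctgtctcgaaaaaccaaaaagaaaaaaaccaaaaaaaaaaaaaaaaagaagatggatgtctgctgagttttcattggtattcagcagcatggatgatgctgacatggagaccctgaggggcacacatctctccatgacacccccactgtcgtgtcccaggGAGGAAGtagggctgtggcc
Ctsg (chr14:56102575-56102824, minus strand): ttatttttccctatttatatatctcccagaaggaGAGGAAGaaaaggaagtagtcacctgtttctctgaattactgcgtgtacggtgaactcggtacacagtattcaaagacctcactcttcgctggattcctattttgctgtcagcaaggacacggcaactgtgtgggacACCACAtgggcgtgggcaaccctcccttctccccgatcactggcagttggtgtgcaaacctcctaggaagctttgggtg
Ltf (chr9:111019042-111019270, plus strand): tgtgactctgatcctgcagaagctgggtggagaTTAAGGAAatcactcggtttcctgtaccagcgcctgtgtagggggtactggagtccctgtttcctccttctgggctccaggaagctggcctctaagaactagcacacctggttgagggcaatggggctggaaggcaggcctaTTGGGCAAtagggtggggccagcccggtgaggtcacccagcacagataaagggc
Ngp (chr9:110419558-110419746, plus strand): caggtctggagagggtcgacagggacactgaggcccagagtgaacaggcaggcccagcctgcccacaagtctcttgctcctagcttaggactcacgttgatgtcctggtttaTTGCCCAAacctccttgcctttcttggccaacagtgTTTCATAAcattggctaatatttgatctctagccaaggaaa
S100a9 (chr3:90695722-90695971, minus strand): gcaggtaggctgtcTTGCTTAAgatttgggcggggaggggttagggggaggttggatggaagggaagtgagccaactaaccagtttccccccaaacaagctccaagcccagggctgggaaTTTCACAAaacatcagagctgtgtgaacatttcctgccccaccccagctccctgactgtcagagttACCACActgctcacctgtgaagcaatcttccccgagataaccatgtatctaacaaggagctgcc

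The C/EBP letters were present in 5 of the 6 secondary granule and cytosolic genes (Ltf, Ngp, Lcn2, S100a8 and S100a9, not Camp) and in 0 of the 4 primary granule genes. Of 32851 RefSeq windows of the same length, 36.8% held them. The PU.1 letters were present in 4 of 4 primary granule genes and in 2 of the 6 others (Lcn2 and S100a8), against 10.6% of all windows. RUNX letters were found in Ctsg and S100a9 (14% of all windows) and MYB letters in Mpo and Elane (19.8%). These counts are over the full 250 bases, also where they reach past a GENCODE start. The MYB match of Elane and the C/EBP match of Ngp nearest to the RefSeq start lie in the bases left out above. The windows of Prtn3 and Lcn2 lie wholly within their GENCODE genes. Matches of different motifs overlapped in 0 cases. Such a match is a description of the letters and no proof of binding, and a window without a match says only that these letters are not in it.

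Levels are given as CPM, counts scaled to a library size of 1000000 after TMM normalisation, and as mean ± SD over 3 libraries. Changes are log2 fold changes, knockout over wild-type, with standard error (SE) and with edgeR's quasi-likelihood p value after Benjamini-Hochberg adjustment over the 18375 genes tested. An adjusted p below 0.05 counts as past the threshold. Libraries held 62141558 to 72717681 counts, and the lowest count of any member in any library was 2045, so that depth did not limit the values of the members. Ddit4 itself was at 170 to 355 CPM in wild-type and at 71.5 to 86.9 CPM in knockout libraries, relative to the plain library totals. The Y-linked gene Ddx3y was at most 0.0803 CPM in wild-type libraries and 89.2 to 121 CPM in knockout libraries, so that genotype and the sex of the cells cannot be told apart in any comparison. Xist, an RNA of female cells, was at 594 to 1011 CPM in wild-type libraries. It was at 63.4, 18.7 and 130 CPM in knockout libraries 1, 2 and 3. Whether part of the knockout RNA came from other cells, such as those of recipients, was not tested. Mitochondrial genes took 5.03% to 7.91% of the counts in wild-type and 11.3% to 16.4% in knockout libraries. Knockout library 2 stood apart for most members, and the changes without it are given where the spread of the libraries is described. By their marker genes the groups also differed in erythroid, megakaryocyte and progenitor RNA, as given with the marker lists.

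The secondary granule and cytosolic genes had lower values in every knockout library than in any wild-type library, whereas the primary granule genes had no common direction. Among the 10 members, 4 fell past the threshold (Elane, Ltf, S100a8 and S100a9) and 0 rose. Over all genes tested, 30.1% passed, with 10.7% lower and 19.4% higher. At an unadjusted p below 0.05 there were 8 members, 7 lower and 1 higher (Ctsg), against 42.4% of all genes, and the Wald test of DESeq2 called the same numbers after adjustment, with 7018 genes called in all against 5535 with edgeR. The groups did not overlap for 7 members, against 50.1% of all genes. Knockout libraries were lower for the 6 secondary granule and cytosolic genes, an arrangement seen in 22.2% of all genes, and higher for Ctsg, as for 27.9% of all genes. The median log2 fold change was -1.53 over the 6 secondary granule and cytosolic genes, -0.38 over the 4 primary granule genes and 0.04 over all genes tested. In bulk libraries, fewer cells of a type and less RNA per cell cannot be told apart. The 4 calls depended on single libraries. With wild-type library 1, wild-type library 2 or knockout library 1 left out, edgeR called 0 members lower (6, 5 and 5 at an unadjusted p below 0.05), and with wild-type library 3 left out it called 1, Elane.

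**Figure D1:**
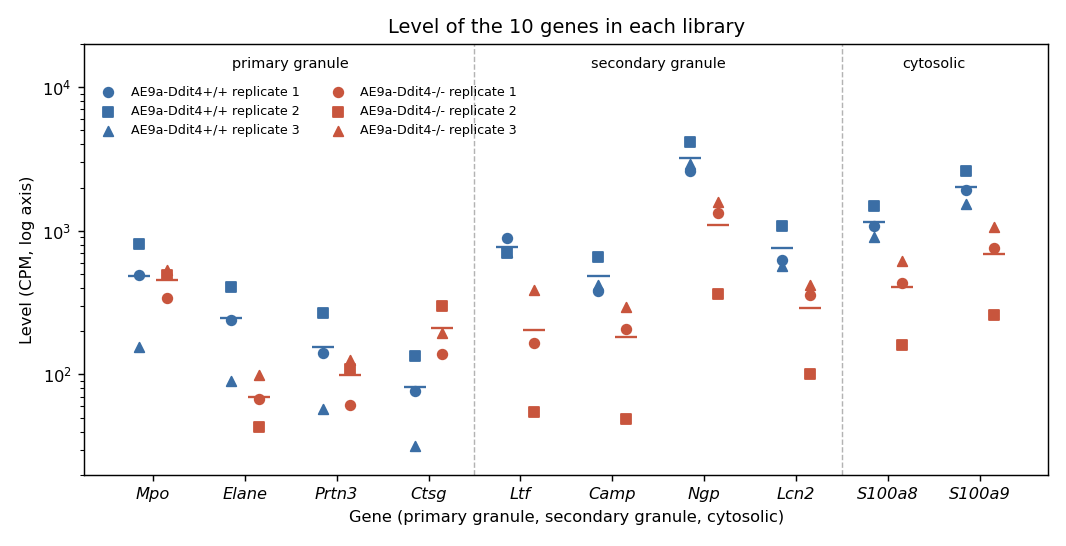
CPM (log axis) of the 10 members in each of the 6 libraries, grouped as primary granule, secondary granule and cytosolic genes, with AE9a-Ddit4+/+ (wild-type) in blue, AE9a-Ddit4-/- (knockout) in red and the mean of each group of 3 libraries as a line. The 6 secondary granule and cytosolic genes lie lower in all knockout libraries, Ctsg lies higher in all of them, and Mpo, Elane and Prtn3 overlap.

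Among the secondary granule genes, Ngp was the most abundant. It encodes neutrophilic granule protein, which shares a cathelin-like fold with Camp (chr9:110419747-110423012, plus strand). Its level was 2628, 4151 and 2937 CPM in wild-type libraries 1, 2 and 3 and 1335, 363 and 1598 CPM in knockout libraries 1, 2 and 3. The groups did not overlap, and knockout library 2 stood lowest by a wide margin. The means were 3238 ± 805 and 1099 ± 650 CPM, which on the log2 scale is a change of -1.56 (SE 0.51, edgeR adjusted p 0.0528) that missed the threshold by a narrow margin. Ngp passed in 5 of 15 alternatives, with adjusted p values from 0.0114 to 0.113 and changes from -1.99 to -1.18.

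Ltf encodes lactoferrin, the iron-binding protein of the secondary granule (chr9:111019271-111042767, plus strand). It had 894, 697 and 716 CPM in wild-type and 166, 54.9 and 389 CPM in knockout libraries. This was the widest spread among the knockout libraries of any member (7.09-fold), against 1.28-fold among the wild-type libraries. Ltf fell from 769 ± 108 to 203 ± 170 CPM, the largest decrease of the 10 (log2 fold change -1.92, SE 0.61, edgeR adjusted p 0.0497). The call was at the edge of the threshold: it held in 5 of 15 alternatives, with adjusted p values from 0.00607 to 0.153, and was lost when libraries were scaled by size factors (0.0508) or by totals (0.0518). Its log2 fold change ran from -2.86 without knockout library 3 to -1.50 without knockout library 2.

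Camp encodes the cathelicidin precursor of an antimicrobial peptide (chr9:109847379-109849617, minus strand). The wild-type libraries had 379, 657 and 417 CPM and the knockout libraries 208, 48.7 and 293 CPM. All knockout values were lower, but with a spread of 6.01-fold among them the log2 fold change of -1.40 did not pass (SE 0.58, edgeR adjusted p 0.108, means 484 ± 151 and 183 ± 124 CPM). Lcn2, a lipocalin that binds bacterial siderophores (chr2:32384633-32388252, minus strand), had 624, 1082 and 572 CPM in wild-type and 357, 101 and 417 CPM in knockout libraries. The groups were again separate, and the change of -1.38 did not pass (SE 0.51, edgeR adjusted p 0.0805, means 759 ± 280 and 291 ± 168 CPM). Camp and Lcn2 each passed in 1 of 15 alternatives, the Wald test of DESeq2.

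S100a8 and S100a9 lie 22.6 kb apart on chromosome 3 and encode the partners of calprotectin, which binds zinc and manganese ions. S100a8 (chr3:90668978-90670035, plus strand) had 1084, 1482 and 901 CPM in wild-type and 434, 159 and 619 CPM in knockout libraries. S100a9 (chr3:90692632-90695721, minus strand) had 1909, 2589 and 1541 CPM in wild-type and 759, 258 and 1057 CPM in knockout libraries. Both genes placed the 6 libraries in the same order, with wild-type library 2 at the top and knockout library 2 at the bottom. S100a8 fell from 1156 ± 297 to 404 ± 232 CPM (log2 fold change -1.52, SE 0.47, edgeR adjusted p 0.0442). S100a9 fell from 2013 ± 532 to 691 ± 404 CPM (log2 fold change -1.54, SE 0.48, edgeR adjusted p 0.0468). Each passed in 9 of 15 alternatives, with adjusted p values from 0.0092 to 0.113 for S100a8 and from 0.00964 to 0.115 for S100a9.

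The primary granule genes varied on other lines. Mpo, which encodes myeloperoxidase, the heme enzyme that makes hypochlorous acid (chr11:87793581-87804413, plus strand), had 494, 812 and 156 CPM in wild-type libraries. The knockout libraries had 339, 491 and 536 CPM, all within the range of the other group. The means of 487 ± 328 and 455 ± 104 CPM gave a change of -0.10 on the log2 scale (SE 0.52, edgeR adjusted p 0.903), whose sign changed when wild-type library 2 (0.49) or knockout library 1 (0.08) was left out.

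Elane encodes neutrophil elastase, a serine protease (chr10:79886247-79888215, plus strand). It had 239, 409 and 89.5 CPM in wild-type and 67.4, 42.9 and 98.7 CPM in knockout libraries. The groups overlapped, since wild-type library 3 lay below knockout library 3. Elane fell from 246 ± 160 to 69.6 ± 27.9 CPM (log2 fold change -1.82, SE 0.55, edgeR adjusted p 0.0413). It passed in 9 of 15 alternatives, with adjusted p values from 0.00467 to 0.168 and changes from -2.22 without wild-type library 3 to -1.24 without wild-type library 2.

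Prtn3 encodes proteinase 3 and ends 3.07 kb before Elane on the same strand (chr10:79874476-79883174). Its level was 142, 268 and 57.8 CPM in wild-type and 61.4, 109 and 126 CPM in knockout libraries. The groups overlapped and the change of -0.66 did not pass (SE 0.53, edgeR adjusted p 0.382, means 156 ± 106 and 98.9 ± 33.5 CPM). It was -1.05 without wild-type library 3 and -0.016 without wild-type library 2. Plppr3 overlaps Prtn3 on the opposite strand and had 991 to 4252 counts per library, and the antisense gene Gm11505 overlaps Mpo with 126 to 744 counts. Whether reads were counted by strand is not given in the sources used here, so reads of such pairs cannot be told apart.

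Ctsg, which encodes the serine protease cathepsin G (chr14:56099881-56102574, minus strand), was the only member with a higher mean in knockout libraries. It had 77.0, 135 and 31.6 CPM in wild-type and 138, 301 and 193 CPM in knockout libraries. The groups did not overlap, although wild-type library 2 and knockout library 1 were close. The log2 fold change of 1.37 did not pass (SE 0.52, edgeR adjusted p 0.0842, means 81.3 ± 51.9 and 211 ± 82.8 CPM). Over the alternatives the adjusted p ran from 0.0253 (without wild-type library 2, change 1.96) to 0.225 (without knockout library 2, change 1.0).

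**Figure D2:**
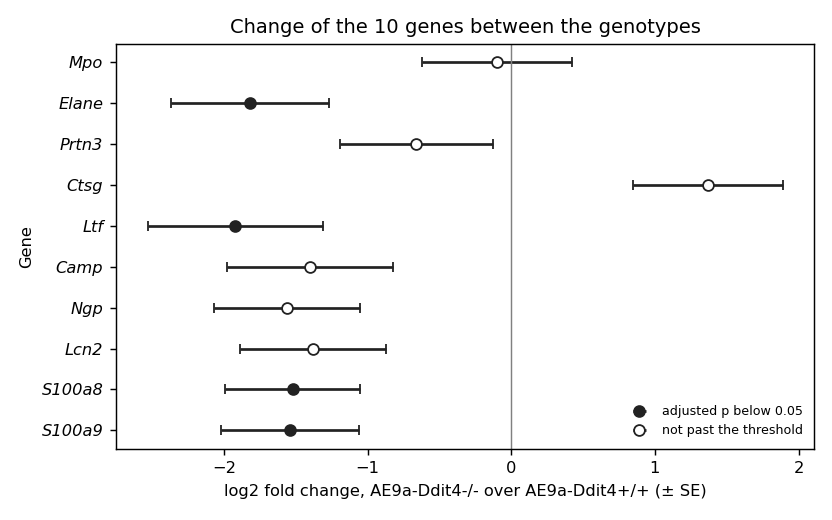
Log2 fold change of each member, knockout over wild-type, with bars of 1 standard error to either side and filled points for genes past the threshold. Values run from -1.92 for Ltf to 1.37 for Ctsg, and of the 10 bars only that of Mpo crosses 0.

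The libraries that set the spread differed between the compartments. Within the wild-type group, each of the 4 primary granule genes was highest in library 2 and lowest in library 3, with ranges of 4.28-fold (Ctsg) to 5.2-fold (Mpo). The 6 secondary granule and cytosolic genes varied by only 1.28-fold to 1.89-fold in the same libraries. Within the knockout group the ranges were reversed, with 1.58-fold to 2.3-fold for the primary granule genes and 3.89-fold to 7.09-fold for the others. Knockout library 2 was the lowest of all 6 libraries for 7 of 10 members, namely the 6 secondary granule and cytosolic genes and Elane, against 14.6% of all genes tested. It was also the lowest of the knockout libraries for these 7, against 34.2% of all genes. Without that library the changes of the 6 were smaller but kept their sign, from -1.50 for Ltf to -0.99 for Camp, and Ltf, Ngp, S100a8 and S100a9 were past the threshold. Elane was then at -1.59 and no longer passed (edgeR adjusted p 0.105). Knockout library 2 also had the highest share of mitochondrial counts (16.4%), whose part in these results was not tested. Scaling without mitochondrial genes and members left Ngp at -1.56 and moved Ltf from -1.92 to -1.90, where it no longer passed (edgeR adjusted p 0.0505), so that 3 members were lower.

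Together the 10 genes took 0.83%, 1.29% and 0.771% of all counts in wild-type and 0.387%, 0.178% and 0.539% in knockout libraries. The secondary granule genes took 0.444%, 0.692% and 0.482% against 0.207%, 0.0523% and 0.273%, and the primary granule genes 0.0933%, 0.171% and 0.0348% against 0.0607%, 0.0869% and 0.0966%. Counts of primary granule genes per count of secondary granule genes thus were 0.21, 0.247 and 0.0722 in wild-type and 0.293, 1.66 and 0.354 in knockout libraries. Only in knockout library 2 did the primary granule genes hold more counts than the secondary granule genes.

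Levels per kilobase of exon allow the genes to be ranked against each other. S100a9 was the highest member in both groups, at 3857 CPM per kilobase in wild-type and 1324 in knockout libraries. This placed it at rank 9 and rank 17 of 21976 protein-coding genes. Ngp followed at 2650 and 899 (ranks 15 and 24), then S100a8 at 1665 and 582 (ranks 21 and 47) and Camp at 639 and 242 (ranks 56 and 124). All 4 remained among the most abundant transcripts of knockout libraries. Lcn2, Elane and Ltf lay close together in wild-type libraries, at 289, 250 and 223 CPM per kilobase. Neighbours in this order differed by less than the SD of either gene. The order of the proteases changed between the groups. Elane, Prtn3 and Ctsg had 250, 90.0 and 78.7 CPM per kilobase in wild-type libraries and 70.8, 57.1 and 204 in knockout libraries. Ctsg moved from rank 478 to rank 154. Mpo stayed at 142 and 133 CPM per kilobase (ranks 253 and 245).

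Ratios of members within a library do not depend on how the libraries are scaled. Of 6 ratios, 5 were planned and that of Ctsg to Elane was added after the values had been seen. With 3 against 3 libraries an exact two-sided permutation test cannot give a p below 0.1, so none of them could pass after adjustment. The ratio of S100a8 to S100a9 counts was 0.568, 0.572 and 0.585 in wild-type and 0.571, 0.616 and 0.586 in knockout libraries, a narrow range although the levels of both genes differed widely between libraries (exact p 0.3, adjusted 0.36). Camp to Ngp was likewise narrow, at 0.144, 0.158 and 0.142 against 0.156, 0.134 and 0.183 (exact p 0.7, adjusted 0.7).

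The proteases did not keep their proportions. Elane to Prtn3, genes next to each other on chromosome 10, was 1.68, 1.53 and 1.55 in wild-type and 1.10, 0.393 and 0.782 in knockout libraries. Mpo to Elane was 2.07, 1.99 and 1.74 against 5.03, 11.4 and 5.44. In both cases the groups did not overlap, and the values were nearly equal among wild-type libraries (exact p 0.1 each, the smallest possible, adjusted 0.2). Ctsg to Elane was 0.322, 0.331 and 0.353 against 2.05, 7.01 and 1.96, a difference of 3.18 on the log2 scale, or 9.08-fold (exact p 0.1, adjusted 0.2). Ltf to Camp was variable in both groups, at 2.36, 1.06 and 1.72 against 0.796, 1.13 and 1.33 (exact p 0.3, adjusted 0.36).

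The make-up of the primary granule group showed the same shift. Ctsg supplied 8.09%, 8.33% and 9.44% of its counts in wild-type and 22.8%, 31.9% and 20.3% in knockout libraries. Elane supplied 25.1%, 25.2% and 26.7% against 11.1%, 4.55% and 10.3%. The share of Mpo was steady, from 46.6% to 56.2%, and that of Prtn3 ran from 14.9% to 17.3% against 10.1% to 13.2%. The summed share of all counts ran from 0.0348% to 0.171% among wild-type libraries, yet the make-up of the group differed little there.

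As a percentage of Ngp, added after the values had been seen, Camp, S100a9, Lcn2 and S100a8 stayed within 1.37-fold to 1.43-fold over all 6 libraries. Ltf ranged over 2.74-fold and Elane over 3.88-fold, while Prtn3, Mpo and Ctsg ranged over 15.3-fold, 25.4-fold and 76.9-fold. Mpo was at 18.8%, 19.6% and 5.32% of Ngp in wild-type and at 25.4%, 135% and 33.6% in knockout libraries.

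**Figure D3:**
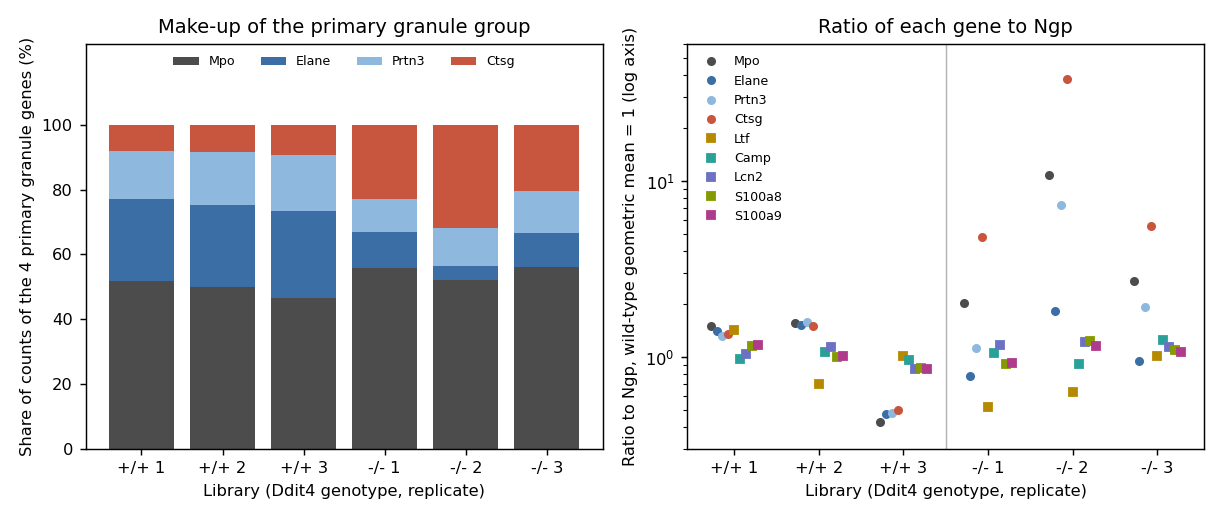
Left, share of the 4 primary granule genes in their summed counts per library, in percent. Right, ratio of each other member to Ngp per library on a log axis, set to 1 at the wild-type geometric mean, where Camp, Lcn2, S100a8 and S100a9 stay near 1 in all 6 libraries and Ctsg, Mpo and Prtn3 rise highest in knockout library 2.

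Other granule genes were read from lists written from general knowledge. Counts of calls in this and all later lists stand against 10.7% of all genes tested lower and 19.4% higher. Of 19 other secondary and tertiary granule genes, 18 were tested, of which 4 fell and 0 rose past the threshold, with a median log2 fold change of -1.19 and 17 of 18 below 0. These were Fcnb, a ficolin that recognises carbohydrates (-2.59, edgeR adjusted p 0.0125), Orm1, an acid glycoprotein whose reads close copies may share (-2.40, 0.021), Chil1, a chitinase-like protein (-2.02, 0.00785) and Cyba, a subunit of the NADPH oxidase (-1.0, 0.0262). Fcnb had 52.0, 32.1 and 16.3 CPM in wild-type and 5.27, 2.70 and 8.74 CPM in knockout libraries. The most abundant of the list, by mean CPM over all 6 libraries here and in all lists, were Chil3, a chitinase-like protein, at -1.32 (edgeR adjusted p 0.155) and Hp, haptoglobin, at -0.58 (0.245). Knockout library 2 was the lowest of all 6 libraries for 18 of 18 genes, and the summed level was 3304 to 5989 CPM in wild-type and 719 to 3045 CPM in knockout libraries. Calls of the list went down to 1 without knockout library 1 and to 2 without wild-type library 1, and up to 7 without knockout library 3.

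Of 12 other primary granule genes, 11 were tested, of which 0 fell (0 also at an unadjusted p below 0.05 and with DESeq2) and 1 rose, with a median of 0.07 and a range of -0.71 to 3.69. The gene that rose was Cd63, a tetraspanin of granule and lysosome membranes, which went from 54.0 ± 26.1 to 698 ± 184 CPM (log2 fold change 3.69, edgeR adjusted p 0.0015). Cd63 is also expressed by platelets, mast cells and many other cell types. The 2 most abundant genes were Srgn, the proteoglycan of granule matrices, at 0.32 and Lyz2, a lysozyme with the close copy Lyz1, at -0.45 (edgeR adjusted p 0.192 and 0.479). The summed level of this list was 1535 to 2289 CPM in wild-type and 2403 to 2773 CPM in knockout libraries. Without Cd63, a sum added after the values were seen, it was 1511 to 2215 CPM in wild-type and 1736 to 2243 CPM in knockout libraries, and the groups overlapped. The number of genes that rose was 2 without wild-type library 1 or knockout library 3.

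Inhibitors restrain the proteases once these leave the granule. Of 10 inhibitors tested, 4 rose and 0 fell (2 lower at an unadjusted p below 0.05, 1 with DESeq2), with a median log2 fold change of 1.20 and 8 of 10 above 0. Serpinb1a, an intracellular inhibitor of elastase, proteinase 3 and cathepsin G, was the most abundant and rose from 80.2, 117 and 89.7 CPM in wild-type to 216, 268 and 253 CPM in knockout libraries (1.36, edgeR adjusted p 0.00316). Stfa1, a stefin that inhibits cysteine proteases, rose by 3.52 (edgeR adjusted p 0.0202), but its close copies in the genome make the assignment of its reads uncertain. Serping1, the inhibitor of complement C1, rose by 3.15 from wild-type levels near the limit of detection, at most 0.295 CPM (0.0198), and Serpinb8 rose by 2.30 (0.0248). The calls of this list ranged from 1 without wild-type library 3 to 5 without wild-type library 2, and were 2 without knockout library 1 or 2.

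Of 12 receptors and binding partners of granule proteins, 11 were tested, and 2 rose and 0 fell (0 lower also at an unadjusted p below 0.05 and with DESeq2), with a median of 0.26. Over all genes tested 19.4% rose, so the number that rose is near that share. Ager, a receptor for S100 proteins, had 8.32, 23.4 and 8.74 CPM in wild-type and 98.9, 53.1 and 49.1 CPM in knockout libraries (log2 fold change 2.31, edgeR adjusted p 0.0118). Slc22a17, the receptor of lipocalin-2, was at 0, 0.339 and 0 CPM in wild-type and at 11.7, 11.5 and 11.8 CPM in knockout libraries (edgeR adjusted p 0.00972). Since 2 of 3 wild-type libraries were at 0, no fold change is given for it. The most abundant of the list were Bsg, a receptor of S100A9, at 0.26 and Itgb2, the beta chain of the leukocyte integrins, at -0.31, and both overlapped between the groups. Without wild-type library 2, 4 genes of this list rose.

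The chromosome 3 cluster holds other S100 genes, of which 6 of 11 could be tested. S100a10, a partner of annexin A2, fell by 1.60 on the log2 scale (edgeR adjusted p 0.0195) and S100a1 rose by 1.82 (0.00468). S100a11, the most abundant by that mean, was at -0.68 and did not pass, and the median of the list was -0.33. The other S100 genes thus went both ways, and whether they differed from S100a8 and S100a9 was not tested. The call of S100a10 was lost without knockout library 1 or 2, and 2 genes rose without wild-type library 2 or knockout library 3.

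Of 11 transcription factors of granulocyte development, 0 fell (3 lower at an unadjusted p below 0.05, 0 with DESeq2) and 2 rose, with a median of 0.34. The number that rose is near the 19.4% of all genes tested. Cebpb, which drives emergency granulopoiesis, rose from 76.6 ± 22.7 to 163 ± 41.4 CPM (log2 fold change 1.09, edgeR adjusted p 0.0245), and Myb, a factor of progenitor cells, rose from 134 ± 10.4 to 230 ± 13.9 CPM (0.78, 0.0104). The number that rose was 1 without wild-type library 1 or 3 or knockout library 1, and 3 without wild-type library 2. Runx1 was at 0.53 (0.186), and its counts may include reads of the AE9a transgene. The 3 factors lower at an unadjusted p below 0.05 were Cebpe, Cbfb and Spi1, all named here after their values were seen. Cbfb was at -0.49 (edgeR adjusted p 0.0839) and Spi1 at -0.56 (0.116). Of the 11 factors, 5 were below 0, whereas Cebpa (0.77), Gfi1 (0.67) and Cebpd (0.34) were above it and did not pass. Cebpe had 7.26, 14.1 and 10.9 CPM in wild-type and 5.23, 2.81 and 7.15 CPM in knockout libraries. All knockout values were lower, with knockout library 2 the lowest, and the change of -1.08 did not pass (SE 0.44, edgeR adjusted p 0.105).

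**Figure D4:**
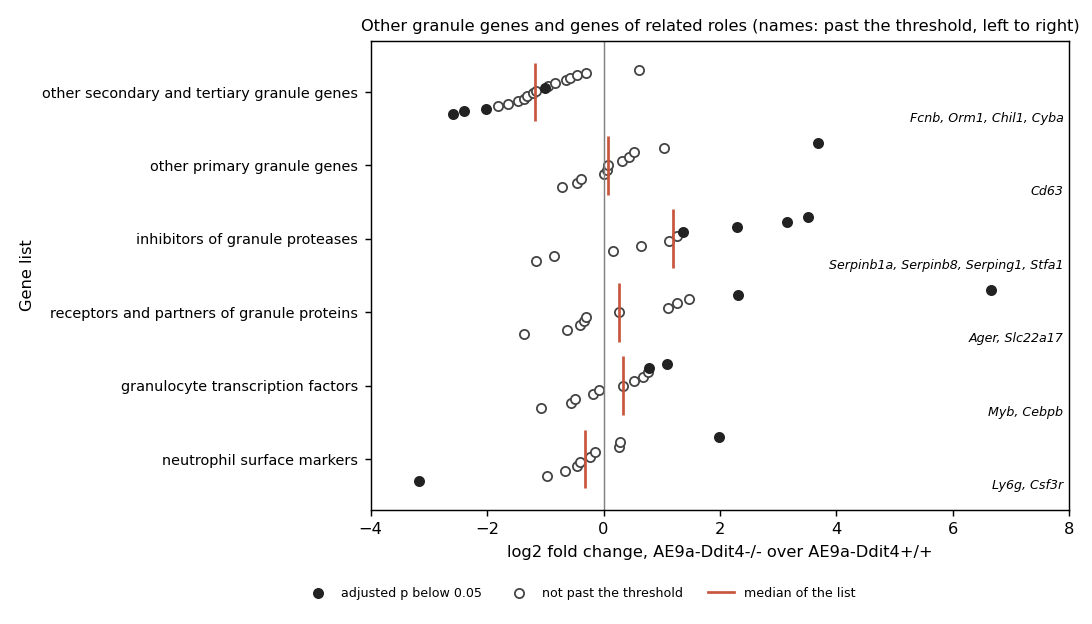
Log2 fold change of the tested genes in 6 lists of granule genes and genes of related roles, with filled points past the threshold and a line at the median of each list. Other secondary and tertiary granule genes lie below 0 in 17 of 18 cases (median -1.19) and inhibitors of granule proteases have a median of 1.20, and the point of Slc22a17 is a fitted value with 2 of 3 wild-type libraries at 0.

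Lists of markers of cells and stages fell, rose or overlapped between the groups, and their part in the results was not tested. Among 10 neutrophil surface markers 1 fell (Ly6g, -3.17, edgeR adjusted p 0.0476) and 1 rose (Csf3r, the G-CSF receptor, 1.98, 0.00297), with summed levels of 435 to 455 CPM in wild-type and 370 to 600 CPM in knockout libraries. Cxcr4, Trem1 and Csf3r were the most abundant. Without wild-type library 1 or 3 or knockout library 1 or 2, 0 of the 10 fell. The sum of the surface markers thus overlapped between the groups, which that of the secondary granule genes did not. Of the 10 surface markers, 7 were below 0 (median -0.32), while Csf3r went from a mean of 40.0 to 158 CPM. Knockout library 2 was the lowest of all 6 libraries for 6 of the 10, against 14.6% of all genes tested. Monocyte and macrophage markers also overlapped, at 276 to 584 and 270 to 727 CPM, with 0 of 10 lower (0 also with DESeq2) and 2 higher, C1qa (3.79, edgeR adjusted p 0.00219) and Mrc1 (5.24, 0.00386). The most abundant of them, F13a1, Ly6c2 and Csf1r, did not pass. Eosinophil markers summed to 6.52 to 8.91 and 17.6 to 31.7 CPM and 3 of 5 tested were higher (Ear2, Il5ra and Ccr3). Of the most abundant, Siglecf, Ear2 and Prg2, Ear2 was past the threshold.

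Markers of other lineages and of progenitors also differed between the groups. Erythroid markers fell in 12 of 12 cases (median log2 fold change -4.87), with sums of 8060 to 16676 CPM in wild-type and 373 to 943 CPM in knockout libraries. Hbb-bs, Hba-a1 and Car1 were the most abundant. Stem and progenitor markers rose in 8 of 9 cases, with sums of 138 to 182 against 1041 to 1306 CPM. The most abundant were Cd34, Kit and Cd48, of which Cd48 did not pass (-1.05, edgeR adjusted p 0.129). Megakaryocyte and platelet markers rose in 6 of 8 cases and summed to 106 to 171 against 2089 to 2902 CPM (Itga2b, Itgb3 and Clec1b most abundant). The 1 lower was Vwf (-2.06, edgeR adjusted p 0.0327). Itga2b alone had 1787 to 2329 CPM in knockout libraries and so made up most of the sum there. The methods of the study describe an AE9a transplant model set up earlier as positive for c-Kit and without lineage markers. Kit, which encodes c-Kit, read 24.7 ± 8.92 CPM in wild-type and, at 411 ± 103 CPM, far more in knockout libraries. Wild-type libraries had a higher sum of the erythroid markers. Knockout libraries had higher sums of the megakaryocyte, mast cell, B cell and T cell lists, though not of every gene in them. RNA levels do not measure that phenotype directly, and whether either group departs from it was not tested. Mast cell and basophil markers rose in 4 of 8 cases, with sums of 258 to 291 against 1178 to 1848 CPM. Their most abundant were Cpa3, Gata2 and Hdc, of which Hdc did not pass. Cpa3 (480 to 1039 CPM) and Gata2 (500 to 612 CPM) made up most of the sum in knockout libraries. Ms4a2 (-1.19) and Fcer1a (-0.61) were below 0 and did not pass. B cell markers rose in 5 of 6 cases (at most 4.55 CPM in sum in wild-type and 52.5 to 108 CPM in knockout libraries, most abundant Cd79b, Cd79a and Pax5), T and NK cell markers in 8 of 9 (at most 48.8 CPM and 82.2 to 121 CPM, most abundant Nkg7, Cd4 and Lck), and stroma and endothelium markers in 5 of 8 (at most 10.0 CPM and 160 to 193 CPM, most abundant Pecam1, Kdr and Col1a1). Nkg7 and Col1a1 did not pass. Pecam1 alone had 123 to 144 CPM in knockout libraries and so made up most of the stroma and endothelium sum there.

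Ctsg lies in a cluster of protease genes on chromosome 14 that are used by mast cells, basophils and cytotoxic lymphocytes. Of 8 other genes tested within 200 kb of Ctsg, 3 rose and 1 fell, where 19.4% and 10.7% of all genes tested did. Mcpt8, a basophil protease 14.6 kb away, rose from 1.31 ± 1.08 to 8.07 ± 2.51 CPM (log2 fold change 2.62, edgeR adjusted p 0.0202), and Cma1, a mast cell chymase 155 kb away, rose from 0.628 ± 0.238 to 8.87 ± 4.44 CPM (3.82, 0.00274). Gzmc, a granzyme, had 0 counts in wild-type libraries and 1.79 to 2.60 CPM in knockout libraries. Mcpt2 fell, from 2.06, 1.44 and 19.8 CPM to 0, 0 and 0.408 CPM (0.0449).

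Around all members together, 99 genes that are no members were tested within 200 kb, of which 8 fell and 18 rose. Over all genes tested, 10.7% fell and 19.4% rose, so these counts are near the shares of the whole table. Next to Mpo, 3 of 12 fell (Tspoap1 at -1.64, Mtmr4 at -1.28 and 1110028F11Rik at -2.63) and 0 rose. Around Elane and Prtn3, Arid3a (1.81), Plppr3 (1.55), Sbno2 (0.74), Hcn2, Kiss1r, Grin3b and Misp rose and Wdr18 fell (-0.80). Of 30 genes tested within 200 kb of Elane, 7 rose and 1 fell. Hcn2, Kiss1r, Grin3b and Misp had wild-type means of at most 0.53 CPM. Near Ltf, 5 of 9 rose, among them Als2cl from 0.432 ± 0.321 to 88.1 ± 6.25 CPM, and the others were Lrrc2, Prss50, Tmie and Gm43127, all with means under 2 CPM. Map4 near Camp fell (-1.33), Scap near Ngp fell (-0.65) and Nradd rose (2.05), and near Lcn2 Fam102a rose (2.09) and Swi5 fell (-0.67). The S100a1 gene described before lies 155 kb from S100a8.

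The genes with the most similar pattern over the 6 libraries were sought among 14010 genes with a mean of at least 1 CPM, by the root mean square difference of centred log2 CPM. For the mean profile of the 4 secondary granule genes these were Cd2ap (0.17), Wfdc21 (0.22), Itgb2l (0.23) and C3 (0.24). Cd2ap had 37.3, 41.4 and 32.5 CPM in wild-type and 14.8, 4.48 and 19.1 CPM in knockout libraries. The secondary granule members themselves were at 0.12 (Ngp) to 0.39 (Ltf), so that all 4 of these genes lay nearer to the mean profile than Ltf did. For the primary granule profile the nearest were Gm11505 (0.18), Gm26628 (0.25), Clec5a (0.26) and Cpq (0.27). Gm11505 is antisense to Mpo, which is part of the profile. With the use of strand unknown, its counts may be reads of Mpo, so its nearness is no separate result. Clec5a had 17.7, 25.8 and 8.51 CPM in wild-type and 9.62, 11.4 and 14.6 CPM in knockout libraries, with the lowest value in wild-type library 3 as for Mpo. Elane (0.84) and Ctsg (0.86) were far from this profile, on opposite sides of it.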

How the data were processed

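RNA-seq of 6 libraries was analysed from 1 table. The authors deposited whole-number counts per Ensembl gene for each library, not normalised. The submitters' processing notes name GRCm38 and mm10. Aligner, counting tool and use of strand are not given in the sources used here, and the methods name a kit for rRNA-depleted RNA where the labels name an mRNA kit. Values of 4, 8 and 12 outnumbered 2, 6 and 10 by 1.4 to 1.62 times, so some fragments may have been counted several times. The number of fragments behind a count is therefore unknown.

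In R 4.3.3, edgeR 4.0.16 was used (filterByExpr, TMM factors of 0.921 to 1.05, estimateDisp, glmQLFit and glmQLFTest with robust estimation, genotype as the only term). Of 55421 genes, 26626 were at 0 in all libraries and 18375 were tested. The SE was taken as the size of the log2 fold change over the root of its F statistic. The biological coefficient of variation was 0.433. On simulated counts with 200 changed genes, the fit called 62% at a log2 change of -2, 90% at 2 and 94% at -4 or 4. Of unchanged genes it called 0.034%. The decreases of the members, the largest -1.92, were smaller than those simulated. Positions are from GENCODE M21 (99.7% of identifiers matched), and 27 symbols that had become dates were restored. Counts of 12 or fewer (0.163 to 0.197 CPM) were treated as under the limit of detection, which covers counting error only.

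The members and the 16 gene lists were chosen with earlier results of these data known. Of the stem and progenitor, megakaryocyte and platelet, and B cell lists, 1 gene each is not reported here, and their counts leave it out. Named are all members, the genes of the granule and role lists past the threshold with the 2 most abundant of each of these lists, the 3 most abundant genes of each marker list, the 4 nearest patterns per profile, and neighbours past the threshold. Marker genes and transcription factors outside this rule are named after their values were seen. Unused columns with values per sample numbered 0. Alternatives were DESeq2 1.42.0, other scalings, filters, counts divided by 4, a stricter threshold, each library left out and a replicate block. Ratios were compared with an exact two-sided permutation test over libraries.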

Additional observations from a re-analysis of the deposited data

How the results depend on the processing

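Of the 10 members, 9 kept the sign of their change in 15 of 15 alternatives. Mpo, which was not past the threshold in any of them, changed sign to 0.49 without wild-type library 2 (its range with 1 library left out was -0.52 to 0.49), 0.08 without knockout library 1 and 0.13 with the replicate block. The number of members lower past the threshold was 4. It was 3 to 5 with other scalings, filters or counts divided by 4, 7 with the Wald test of DESeq2 (which also called 1 member, Ctsg, higher) and 0 at an adjusted p below 0.01. It ran from 0 to 5 when 1 library was left out. The number of members higher ran from 0 to 1, with Ctsg called without wild-type library 2. Other granule genes lower numbered 4, 7 with DESeq2, 1 at an adjusted p below 0.01 and 1 to 7 when 1 library was left out. Over all genes, 5535 passed, 7018 with DESeq2, 2676 at an adjusted p below 0.01 and 3840 to 6021 when 1 library was left out. The cause of these shifts was not tested. The median change of all genes was -0.04 to 0.15 over the alternatives.

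Libraries of the same number did not deviate together (r = -0.29, -0.33 and 0.01 over 9356 genes for numbers 1, 2 and 3). With 3 libraries per group these r values cannot exclude a pairing, and the sources do not give one. With the replicate block, 2964 genes, 0 members (4 lower and 1 higher at an unadjusted p below 0.05) and 1 other granule gene passed, and Elane, at an adjusted p of 0.168, was farthest from the threshold of the 4 members called. Of the 6 ratios, 5 kept their direction in all alternatives run, and Camp to Ngp (0.081 on the log2 scale) turned to -0.032 without knockout library 3. None can pass with 3 against 3 libraries. Depth limits only values of a few counts, such as those of the 5 S100 genes that could not be tested. It also limits the wild-type but not the knockout values of Slc22a17 and Gzmc.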
